A study of Rattus norvegicus with 20 samples.

Results

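Abcc1, Abcc2, Abcc3 and Abcc4 encode the multidrug resistance proteins MRP1 to MRP4, and each was followed across 20 Affymetrix rat genome arrays of embryonic testis. The platform annotation gave each of these genes 1 probe set, so 4 probe sets of 31042, or 4 genes of 14217 with a symbol of their own, were chosen by gene symbol. All 4 passed the filter on low values, which left 22526 probe sets to test, but Abcc2 passed it by a narrow margin described below.

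The testes came from Sprague-Dawley rat embryos. In utero, the groups were vinclozolin and vehicle at embryonic days 13, 14 and 16 (E13, E14 and E16), with 2 arrays in each of these 6 groups. Dams received vinclozolin at 100 mg/kg per day, or its vehicle DMSO, from E8 to E14, so that E13 fell within the injections and E16 after them. In culture, E13 gonads were kept for 3 days with the mesonephros attached and the testis was cut free of it for RNA, and a PCR for the Y-linked Sry gave the sex in all experiments. The culture groups were vinclozolin at 50 µM and its vehicle DMSO, and flutamide at 0.5 µM and its vehicle ethanol, again with 2 arrays each. Of each gonad pair, 1 went to the compound and 1 to the vehicle. The labels name the 2 arrays of each group as biological replicates and do not give the number of embryos behind them, so p-values reflect only the spread among arrays, which may be technical.

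The proteins of this family belong to the ATP-binding cassette transporters and use ATP to move organic anions out of cells. Their cargo includes drugs and hormones joined to glutathione, glucuronic acid or sulfate, and they stand at the end of the pathway in which a cell conjugates a foreign compound and exports it. MRP1 also carries the leukotriene LTC4, MRP2 works at the apical membrane of hepatocytes and kidney tubules, MRP3 at the basolateral side of epithelia, and MRP4 exports cyclic nucleotides, prostaglandins and steroid sulfates. In mice, loss of Abcc1 makes the testis more sensitive to a cytotoxic drug, and loss of Abcc4 lowers testosterone production. Vinclozolin is a fungicide whose metabolites block the androgen receptor, and flutamide is a pharmaceutical blocker of the same receptor.

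Abcc1 lies on chromosome 10 at 1022041 to 1162431 of the GRCr8 assembly, Abcc2 on chromosome 1 at 252613875 to 252672459, Abcc3 on chromosome 10 at 79793571 to 79839528 and Abcc4 on chromosome 15 at 101948387 to 102182912. RefSeq promoter sequences were matched for 3 of the 4 genes, Abcc1, Abcc2 and Abcc4. The 250 bases before the start given for each in the promoter table are shown, so that the base composition and motifs next to these genes can be read. That start equals the edge of the gene span for Abcc2. For Abcc1, 64 bases of the window lie inside the span, and for Abcc4 all 250 do, with another 1298 bases of the span upstream of them. Capitals mark the GC box GGGCGG, which Sp1-type factors bind, and the CCAAT box, in either direction. They are Abcc1 (chr10:1162368-1162617, minus strand), Abcc4 (chr15:102181365-102181614, minus strand) and Abcc2 (chr1:252613625-252613874, plus strand), each read 5′ to 3′ in the direction of its gene.
Abcc1: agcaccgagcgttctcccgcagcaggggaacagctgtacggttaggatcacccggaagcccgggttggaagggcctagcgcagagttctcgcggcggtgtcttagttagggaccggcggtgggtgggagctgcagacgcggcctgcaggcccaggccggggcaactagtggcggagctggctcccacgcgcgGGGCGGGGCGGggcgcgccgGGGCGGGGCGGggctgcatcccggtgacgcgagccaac
Abcc4: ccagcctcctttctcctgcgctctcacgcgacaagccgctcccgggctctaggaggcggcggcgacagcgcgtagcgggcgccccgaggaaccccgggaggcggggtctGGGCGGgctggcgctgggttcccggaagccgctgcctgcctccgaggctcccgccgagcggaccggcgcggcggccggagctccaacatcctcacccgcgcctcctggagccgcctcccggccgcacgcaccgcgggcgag
Abcc2: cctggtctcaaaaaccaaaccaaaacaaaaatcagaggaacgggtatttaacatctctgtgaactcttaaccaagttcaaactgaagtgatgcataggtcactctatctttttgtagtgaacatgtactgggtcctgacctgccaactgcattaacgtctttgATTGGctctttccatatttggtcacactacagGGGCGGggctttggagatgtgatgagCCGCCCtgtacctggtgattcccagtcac

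The GC content of these windows was 72.8% for Abcc1 and 77.6% for Abcc4, above that of 94.7% and 98% of all 33469 windows of the same length, whose median was 51.2%. The Abcc2 window held 45.2% GC and 4 CpG dinucleotides, against 29 for Abcc1 and 37 for Abcc4. GGGCGG was found 4 times for Abcc1, as 2 pairs of copies that overlap by 1 base, 2 times for Abcc2 and 1 time for Abcc4, and 30.5% of all windows held it on either strand. CCAAT was found 1 time, in the Abcc2 window, and in 34% of all windows. The core of the antioxidant response element, TGACNNNGC, which NRF2 binds and 10.1% of all windows held, was in none of the 3 windows, nor was the TATA box TATAAA (12.9% of all windows). These are matches of letters and say nothing about binding.

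The deposited values are MAS5 signal intensities, scaled by the authors to a trimmed mean of 210.1 on the 12 in utero arrays, 218.1 on the 4 arrays of the vinclozolin culture and 107 on the 4 arrays of the flutamide culture. Levels were therefore compared within an experiment as signals and across experiments only as the percentile of a probe set among all probe sets of its array. Correlations between the 2 arrays of a group, across probe sets, were 0.959 to 0.982. Of the in utero arrays, those of E13 numbered 1 and single arrays of E14 stood apart, and in the Y-linked gene Eif2s3y all of E14 did. Xist, the RNA of the inactive X chromosome, read 896 and 758.6 on the vinclozolin and vehicle arrays numbered 1, against 17.9 and 20.4 on those numbered 2, and Amh, the Sertoli cell hormone, read 372.4 and 106 against 1102.2 and 1484.7. At E14, Xist read 32 and 489.9 with vinclozolin and 174.9 and 184.4 with vehicle, and Amh 5795.5 and 4892.5 with vinclozolin and 1553.9 and 5697.9 with vehicle. Xist also read 168.2 to 211.9 on the flutamide culture arrays and 112.8 on 1 array of the vinclozolin culture. Eif2s3y read 902.6 to 1248.9 at E14 and 2363.1 to 3495.7 on the other in utero arrays. It read 3115.1 to 3330.2 on the vinclozolin culture arrays. On the flutamide culture arrays, which have a lower scale of their own, it read 668.3 to 764.8. The 3' to 5' ratio of beta-actin signal, which climbs as RNA degrades, lay at 9.08 to 11.1 on the 4 flutamide culture arrays and at 1.73 to 3.90 on the other 16. Sertoli, Leydig, endothelial and mesonephric marker genes were looked up on all arrays. None read 0, but only 0 to 2 probe sets per array did, so this says nothing about detection. Among mesonephric markers, Slc34a1 lay under the 40th percentile on 20 of 20 arrays and Cubn on 18. Lhx1 did so on 15, Pax2 on 14 and Cdh16 on 10. The Leydig markers Cyp17a1 and Insl3 did so on 8 each and Cyp11a1 and Lhcgr on 6 each, and no Sertoli or endothelial marker did.

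Abcc1, the exporter of glutathione conjugates, had a clear signal on every array. At E13 it read 314.7 and 275.2 with vinclozolin and 267.1 and 282 with vehicle. At E14 it read 338.9 and 529.5 with vinclozolin and 252.6 and 341.4 with vehicle. At E16 it read 241.7 and 255.9 with vinclozolin and 154.1 and 162.4 with vehicle. The 4 arrays of E16 all lay below the 4 of E13, and the 2 lowest were those of E16 vehicle. Among the 6 groups, E14 vinclozolin had the highest mean (434.2 ± 134.8, SD, n = 2), followed by E14 vehicle (297 ± 62.8), E13 vinclozolin (294.9 ± 27.9) and E13 vehicle (274.6 ± 10.5), and these neighbours overlapped in their arrays. Below them came E16 vinclozolin (248.8 ± 10) and E16 vehicle (158.2 ± 5.87), each apart from the group above it.

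Abcc4, the exporter of cyclic nucleotides and prostaglandins, also had a clear signal on every array. At E13 it read 188.6 and 205.3 with vinclozolin and 210.9 and 224.8 with vehicle. At E14 it read 247.4 and 245.6 with vinclozolin and 158.2 and 185.5 with vehicle. At E16 it read 199.5 and 204.3 with vinclozolin and 125.2 and 156.5 with vehicle. The vehicle arrays of E14 and E16 were the 4 lowest of the 12, and the E14 vinclozolin arrays the 2 highest. In order, the group means were E14 vinclozolin (246.5 ± 1.27), E13 vehicle (217.9 ± 9.83), E16 vinclozolin (201.9 ± 3.39), E13 vinclozolin (196.9 ± 11.8), E14 vehicle (171.8 ± 19.3) and E16 vehicle (140.8 ± 22.1). The last 3 neighbouring steps, from E16 vinclozolin down, were each smaller than the summed SDs of the groups they part.

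Abcc3, the basolateral exporter of glucuronides, was dimmer and peaked at E14. At E13 it read 58.3 and 26.5 with vinclozolin and 33.7 and 32.6 with vehicle. At E14 it read 91.5 and 104.9 with vinclozolin and 69.2 and 127.3 with vehicle. At E16 it read 52.2 and 43.6 with vinclozolin and 13.2 and 50.9 with vehicle. The 4 arrays of E14 were the 4 highest of the 12, and vinclozolin and vehicle overlapped at every stage. The group means were 98.3 ± 41.1 for E14 vehicle, 98.2 ± 9.48 for E14 vinclozolin, 47.9 ± 6.08 for E16 vinclozolin, 42.4 ± 22.5 for E13 vinclozolin, 33.2 ± 0.78 for E13 vehicle and 32 ± 26.7 for E16 vehicle, and the only step beyond the summed SDs was that below E14 vinclozolin.

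Abcc2, the apical exporter of bilirubin glucuronide in liver, was at the low end of the array. It lay under the 40th percentile of its array on 18 of 20 arrays and reached that percentile on 1 array of E14 vinclozolin and 1 of cultured testis with ethanol, the 2 arrays that the filter required. At E13 it read 15.3 and 23.1 with vinclozolin and 17 and 7.4 with vehicle, at E14 35.7 and 28.4 with vinclozolin and 23.2 and 32.6 with vehicle, and at E16 17.4 and 17.3 with vinclozolin and 23.3 and 2.5 with vehicle. The highest signal among all arrays was 35.7, and the 40th percentile lay between 26.5 and 42.1. No fold or difference of this gene is read as a result, and its values are not ranked, since both sides of each comparison were at or near this floor. Its differences under alternative settings and its correlations are printed further below for completeness and carry the same limit.

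**Figure D1:**
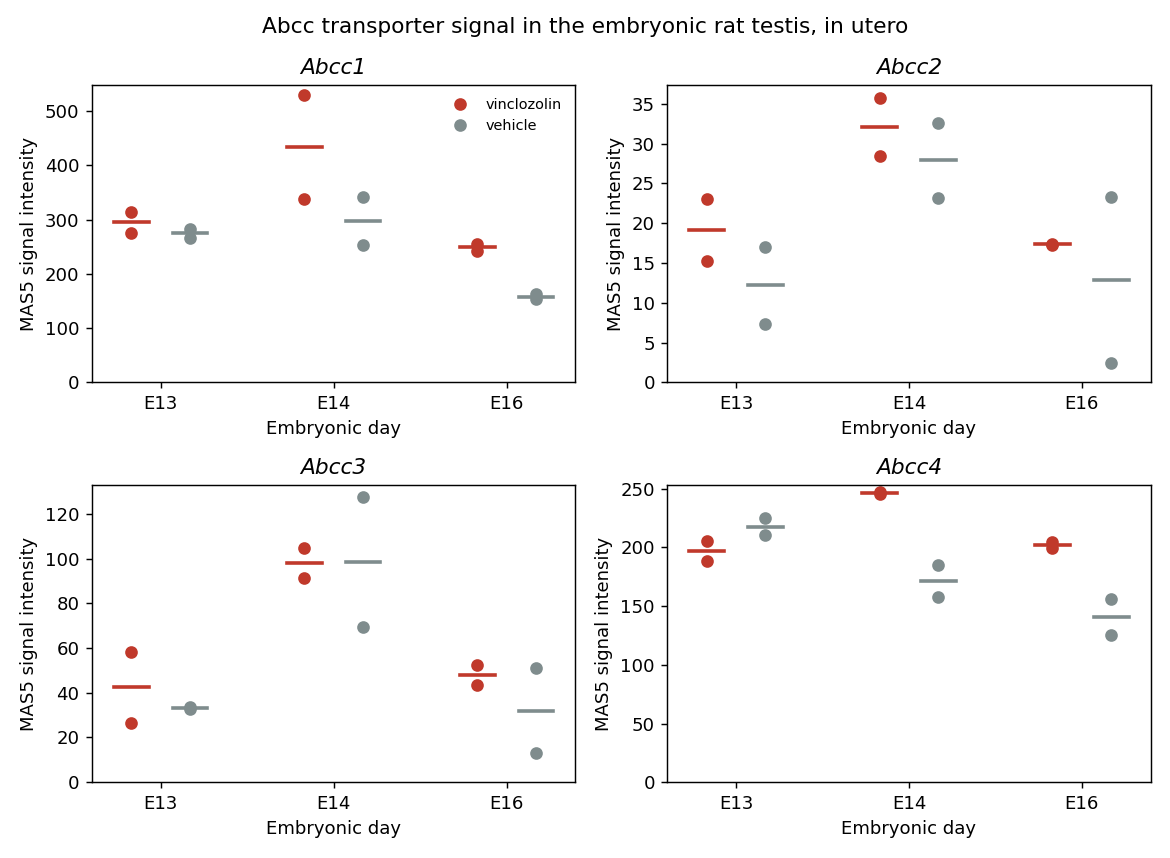
MAS5 signal intensity (y axis) of the 4 genes at E13, E14 and E16 (x axis), with vinclozolin in red on the left and vehicle in grey on the right of each stage; points are arrays and bars the mean of 2. The 4 E14 arrays of Abcc3 lie at 69.2 to 127.3, above all others, and the 2 E16 vehicle arrays of Abcc1 at 154.1 and 162.4, below all others.

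The stage course was tested as the mean of the stage differences with vinclozolin and with vehicle (n = 4 arrays per stage), by limma across all 22526 probe sets on log2(signal + 16), where a difference of a dim gene is understated. All p-values here are two-sided and adjusted by Benjamini-Hochberg over those probe sets, and a gene rose or fell where the adjusted p was under 0.05. Between E14 and E16, Abcc1 fell by 0.78 on the log2 scale (SE 0.14, 95% interval -1.08 to -0.49, adjusted p = 0.000338), to 0.582 of its E14 level. Abcc3 fell by 1.08 (SE 0.29, interval -1.69 to -0.47, adjusted p = 0.00681), to 0.473 of its E14 level. Abcc4 stood at -0.27 (SE 0.12, adjusted p = 0.0981) and did not pass, nor did Abcc2 (adjusted p = 0.0679, and 0.0121 without E16 vehicle replicate 1). Thus 2 of the 4 genes fell where 41.5% of all tested probe sets passed in either direction, so the count itself is near the background. Both falls passed in each of the 8 fits that left out 1 array.

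Between E13 and E14, Abcc3 rose by 1.09 (SE 0.29, interval 0.48 to 1.71, adjusted p = 0.0117), to 2.14 times its E13 level. It was the member past the threshold of the 4, where 25.1% of all tested probe sets passed. Abcc1 stood at 0.30 (SE 0.14, adjusted p = 0.125) and Abcc4 at -0.01 (SE 0.12, adjusted p = 0.971), and the adjusted p of Abcc2 was 0.126. The arrays of E14 and E13 did not overlap for Abcc3, higher at E14, where 23.4% of all tested probe sets did not overlap in either direction. The Abcc2 arrays did not overlap either, but 3 of 4 at E14 and 4 of 4 at E13 lay under the 40th percentile, where values have no order. The rise of Abcc3 did not pass without E13 vinclozolin replicate 2 (adjusted p = 0.0607), without E14 vehicle replicate 2 (adjusted p = 0.0548) or with the vehicle arrays alone (1.17, adjusted p = 0.12). Without E14 vinclozolin replicate 1, Abcc1 passed at 0.45 (adjusted p = 0.026).

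Over the whole span from E13 to E16, Abcc1 fell by 0.48 (SE 0.14, interval -0.78 to -0.19, adjusted p = 0.0216), and it was 1 of 4 members past the threshold where 18.7% of all tested probe sets passed. Abcc3 ended where it began, at 0.01 (SE 0.29, interval -0.60 to 0.63, adjusted p = 0.981). Abcc4 stood at -0.27 (SE 0.12, adjusted p = 0.14), and the adjusted p of Abcc2 was 0.912. Arrays of E16 and E14 did not overlap for 1 member, Abcc3 (34.5% of all tested probe sets), and those of E16 and E13 for 1 member, Abcc1 (23.4% of all tested probe sets). The fall of Abcc1 over this span was lost in 4 of 8 fits that left out 1 array, namely E13 vehicle replicate 2 (adjusted p = 0.0535), E13 vinclozolin replicate 1 (0.0836), E16 vehicle replicate 1 (0.0528) and E16 vinclozolin replicate 1 (0.0753), and without both E13 arrays numbered 1 (0.114). With the vehicle arrays alone the difference of Abcc4 from E13 to E16 was -0.58 (adjusted p = 0.0496).

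Cell types changed over the same days, and in bulk tissue fewer cells of a type and less RNA per cell cannot be told apart. The summed signal of 5 endothelial markers was 1293 to 1530 at E13 with vinclozolin and 1119 to 1302 with vehicle. It was 1971 to 2136 at E14 with vinclozolin and 1765 to 1934 with vehicle, and 1156 to 1240 at E16 with vinclozolin and 1128 to 1274 with vehicle, so it was highest at E14, as Abcc3 was. Of these 5 markers 4 rose between E13 and E14, and 4 fell between E14 and E16. Of 9 tested mesonephric and tubule markers, 3 rose and 1 fell between E13 and E14, and 8 fell between E14 and E16. The summed signal of the 10 of them on the array was 1706 to 2130 at E13 with vinclozolin and 2001 to 2409 with vehicle. It was 1715 to 2049 at E14 with vinclozolin and 1698 to 2671 with vehicle, and 1403 to 1423 at E16 with vinclozolin and 1137 to 1276 with vehicle, the lowest of the 3 stages. The summed signal of 4 Sertoli markers was also highest at E14, except on E14 vehicle replicate 1. It was 584.1 to 1429 at E13 with vinclozolin and 314.5 to 1824 with vehicle. At E14 it was 5508 to 6799 with vinclozolin and 1972 to 6452 with vehicle, and at E16 2121 to 2616 with vinclozolin and 2356 to 2999 with vehicle. The 1972 of E14 vehicle replicate 1 lay below all E16 arrays. Of the 4 markers, 2 rose between E13 and E14, and 1 rose and 2 fell between E14 and E16. Of 6 erythroid markers 3 rose between E13 and E14 and 5 between E14 and E16, and of 6 hepatocyte markers 4 rose between E14 and E16, with a median of 1.33. All 6 Leydig markers and all 5 peritubular and smooth muscle markers rose between E14 and E16, with medians of 4.81 and 1.51 on the log2 scale, and all 4 neural crest markers fell, with a median of -0.96. The part of these cell types in the courses of Abcc1 and Abcc3 was not tested.

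Vinclozolin given to the dam was tested at each stage, and at E16 Abcc1 and Abcc4 both had higher signals on both vinclozolin arrays than on either vehicle array. The difference of Abcc1 was 0.60 (SE 0.20, interval 0.19 to 1.02), a fold of 1.52, with an unadjusted p of 0.00693 and an adjusted p of 0.594 by limma. That of Abcc4 was 0.48 (SE 0.18, interval 0.11 to 0.85), a fold of 1.40, with an unadjusted p of 0.0143 and an adjusted p of 0.621. Neither passed the threshold, and with each of the 4 arrays left out in turn the value was 0.56 to 0.64 for Abcc1 and 0.34 to 0.63 for Abcc4. Abcc3 stood at 0.53 (SE 0.41, interval -0.34 to 1.39, adjusted p = 0.85), and the adjusted p of Abcc2 was 0.906. Thus 2 of 4 members did not overlap at E16, where 39.2% of all tested probe sets did not, and 0 of 4 passed, as did 0% of all tested probe sets, although 1506 of them had an unadjusted p under 0.05.

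Other measures also differed between vinclozolin and vehicle at E16, where 39.2% of all tested probe sets did not overlap. The 40th percentile of the array was 42.1 and 38.7 with vinclozolin and 34.4 and 35.8 with vehicle, and after quantile normalization the differences were 0.53 for Abcc1 and 0.39 for Abcc4. The summed signal of 6 Leydig markers was 18930 to 20580 with vinclozolin and 10470 to 18520 with vehicle. That of the mesonephric markers, given above, was also higher with vinclozolin on both arrays. Within that list Cdh1, Epcam, Pax8 and the dim Cdh16 and Slc34a1 were higher on both. Emx2, its brightest gene on the vehicle arrays, and the dim Pax2 were lower on both. Emx2 read 398.6 and 476.7 with vinclozolin and 643.7 and 572.2 with vehicle. Epcam read 514.5 and 527.1 with vinclozolin and 296.1 and 389.3 with vehicle. That of 2 germ cell markers was 110.9 to 138.5 with vinclozolin and 79.5 to 106 with vehicle, and that of 5 peritubular and smooth muscle markers 2441 to 2701 with vinclozolin and 3014 to 3586 with vehicle. The summed signals of the other 7 marker lists overlapped. No marker of any list passed the threshold for vinclozolin at E16, and the part of these cell types in the differences was not tested.

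At E14, the last day of injection, Abcc4 again had no overlap, with a difference of 0.49 (SE 0.18, interval 0.11 to 0.86), a fold of 1.40, an unadjusted p of 0.0135 and an adjusted p of 0.888. Abcc1 stood at 0.51 (SE 0.20, interval 0.09 to 0.92, unadjusted p = 0.0197, adjusted p = 0.888), but the lower vinclozolin array (338.9) lay below the higher vehicle array (341.4). Without E14 vinclozolin replicate 2, the array that read 529.5, the difference of Abcc1 was 0.20, without E14 vehicle replicate 1 it was 0.30, and without E14 vinclozolin replicate 1 it was 0.82. Abcc3 stood at 0.05 (SE 0.41, interval -0.82 to 0.91). The first of these arrays is the one with Xist at 489.9. On E14 vehicle replicate 1, against E14 vehicle replicate 2, Amh read 1553.9 against 5697.9, and the summed signal was 14310 against 3777 for 6 erythroid markers and 124.9 against 32 for 2 adrenal markers. The summed signal of 5 endothelial markers was 1971 to 2136 with vinclozolin and 1765 to 1934 with vehicle. That of 7 macrophage markers was 651.9 to 699.7 with vinclozolin and 701.8 to 1098 with vehicle. Neither sum overlapped between vinclozolin and vehicle, no marker of any list passed the threshold, and their part was not tested. Of the 4 members 1 did not overlap (27.1% of all tested probe sets) and 0 passed, against 1 probe set of 22526, or 0.00444%.

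At E13, during the injections, no member passed the threshold. Abcc1 stood at 0.10 (SE 0.20, interval -0.32 to 0.51) and Abcc3 at 0.19 (SE 0.41, interval -0.67 to 1.06). Abcc4 stood at -0.14 (SE 0.18, interval -0.51 to 0.24), with both vinclozolin arrays under both vehicle arrays. This was 1 member of 4 without overlap, where 24.4% of all tested probe sets had none, and 0 of 4 passed, as did 0% of all tested probe sets, with 402 at an unadjusted p under 0.05 by limma. The summed signal of Leydig markers was higher with vinclozolin (361.5 to 377.6) than with vehicle (217 to 320.4). So were those of macrophage (595 to 616.8 against 503 to 565.2) and neural crest markers (309.5 to 309.6 against 238.1 to 261). The dim adrenal markers summed to 43.3 to 46.8 with vinclozolin and 18.7 to 30.7 with vehicle. The peritubular and smooth muscle sum was lower (519.2 to 615.4 against 623.3 to 897). Other sums overlapped, and the part of these was not tested. Without the E13 arrays numbered 1, Abcc1 stood at -0.03 and Abcc3 at -0.19.

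Averaged over the 3 stages (n = 6 and 6), the difference of Abcc1 was 0.40 (SE 0.11, interval 0.16 to 0.64), a fold of 1.32, and that of Abcc4 was 0.28 (SE 0.10, interval 0.06 to 0.49), a fold of 1.21. Their unadjusted p-values were 0.00253 and 0.0145, the first being the 42nd smallest of 22526, and the adjusted p was 0.998 for both. Abcc3 stood at 0.26 (SE 0.24), and at 0.056 to 0.46 with each array left out in turn, over which Abcc1 ran from 0.30 to 0.51 and Abcc4 from 0.23 to 0.33. Of all tested probe sets 0% passed in this comparison, and 923 had an unadjusted p under 0.05, which is 4.1% of them. Whether the response differed between stages was tested with a moderated F test on the whole table, which 0% of the probe sets passed and 1004 met at an unadjusted p under 0.05. For Abcc4 the F was 4.12 (unadjusted p = 0.0351, adjusted p = 0.983), for Abcc1 1.89 (unadjusted p = 0.182) and for Abcc3 0.37.

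**Figure D2:**
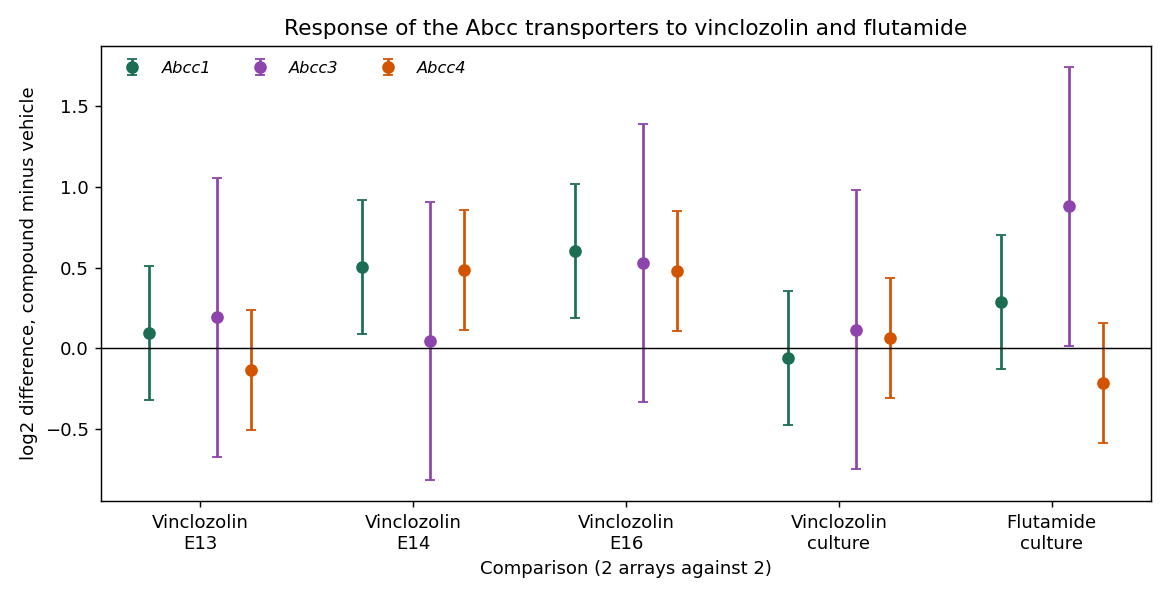
Difference between compound and vehicle on the log2(signal + 16) scale (y axis) for Abcc1, Abcc3 and Abcc4 in 5 comparisons of 2 arrays against 2 (x axis); points are limma estimates and bars the 95% intervals, not adjusted for the number of probe sets. Abcc1 and Abcc4 lie above 0 with their whole interval at E14 and E16, as does Abcc3 with flutamide (0.02 to 1.75). No gene passed the adjusted threshold.

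In culture with vinclozolin at 50 µM, the arrays of Abcc1, Abcc3 and Abcc4 overlapped with those of DMSO. Abcc1 read 409.9 and 347.3 with vinclozolin and 370.6 and 419.1 with DMSO (difference -0.06, SE 0.20, interval -0.47 to 0.35). Abcc4 read 187.5 and 189.6 with vinclozolin and 157.4 and 204.3 with DMSO (0.07, SE 0.18, interval -0.31 to 0.44). Abcc3 read 123.7 and 55.4 with vinclozolin and 103 and 55.5 with DMSO (0.11, SE 0.41), so that within each group 1 array was about as bright as 1 array of the other. Abcc2 read 4.5 and 0.7 with vinclozolin and 13.1 and 21.5 with DMSO, all of them below the 40th percentile, so they have no order although they do not overlap (adjusted p = 1.00). Of all tested probe sets 28.8% had no overlap, and 0 of 4 passed, as did 0% of all tested probe sets (610 at an unadjusted p under 0.05). The summed signal of Leydig markers was 5574 to 6115 with vinclozolin and 6332 to 6538 with DMSO. That of macrophage markers was 548.6 to 552.6 with vinclozolin and 594.8 to 653.5 with DMSO. Those of germ cell (87 to 101.7 against 53.9 to 57.8) and neural crest markers (348.7 to 526.2 against 333.2 to 346) were higher. Other sums overlapped, and the part of these was not tested.

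On both arrays with flutamide at 0.5 µM, signals of Abcc3 and Abcc1 were higher, and those of Abcc4 lower, than on either ethanol array. Abcc3 read 62.1 and 56 with flutamide and 34.2 and 17 with ethanol, a difference of 0.88 (SE 0.41, interval 0.02 to 1.75, unadjusted p = 0.0461, adjusted p = 1.00). With each array left out in turn it was 0.58 to 1.18, the lowest without ethanol replicate 2. Abcc1 read 180.8 and 195.7 with flutamide and 160.9 and 141.8 with ethanol (0.29, SE 0.20, interval -0.13 to 0.70). Abcc4 read 85.9 and 112.7 with flutamide and 119.9 and 114.1 with ethanol (-0.22, SE 0.18, interval -0.59 to 0.16), which was -0.047 without flutamide replicate 1 and -0.38 without flutamide replicate 2. Abcc2 read 16.3 and 15.1 with flutamide and 7.5 and 26.5 with ethanol. In all, 3 of 4 members did not overlap, where 38.1% of all tested probe sets did not, and 0 of 4 passed, as did 0% of all tested probe sets (494 at an unadjusted p under 0.05). The beta-actin ratio was 9.08 and 9.75 with flutamide and 11.1 and 11 with ethanol, and the 40th percentile of the array 30.7 and 29 with flutamide and 26.6 and 26.5 with ethanol. The summed signals were 1679 to 2678 with flutamide and 1502 to 1520 with ethanol for 6 hepatocyte markers, 171.8 to 214.7 with flutamide and 133.5 to 134.3 with ethanol for 2 adrenal markers, and 5134 to 5457 with flutamide and 4921 to 5113 with ethanol for 6 Leydig markers. Those of 10 mesonephric markers were 732.5 to 769.2 with flutamide and 781.6 to 821.2 with ethanol. The part of these in the result was not tested. The concentrations of the 2 compounds differed, so their values stand side by side only.

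Levels in culture were set beside those in utero by percentile, without a test, since the arrays were scaled separately. Abcc1 lay at percentiles 80.3 to 83 on the vinclozolin culture arrays, 76.3 to 82.2 on the flutamide culture arrays, 75.7 to 78.7 at E13, 74.1 to 86.8 at E14 and 67.4 to 75.6 at E16. All 8 culture arrays thus ranked Abcc1 above all 4 E16 arrays, by a narrow margin (76.3 in the flutamide culture against 75.6 at E16). The flutamide culture arrays are those with beta-actin ratios of 9.08 to 11.1. How many of all probe sets part in this way was not counted, so this is not a trait particular to Abcc1. Abcc4 lay at 65.7 to 70.4 on the vinclozolin culture arrays, 65.4 to 72.9 on the flutamide culture arrays and 63.7 to 74.3 in utero, the narrowest range of the 4 probe sets. Abcc3 lay at 46.3 to 60.7 and 28.8 to 58 on the culture arrays of vinclozolin and of flutamide, against 35.8 to 47.3 at E13, 49.4 to 60.9 at E14 and 21.9 to 46.7 at E16. Abcc2 lay at 0.343 to 28.6 on the vinclozolin culture arrays, 14.8 to 40 on the flutamide culture arrays and 6.55 to 40.7 in utero.

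**Figure D3:**
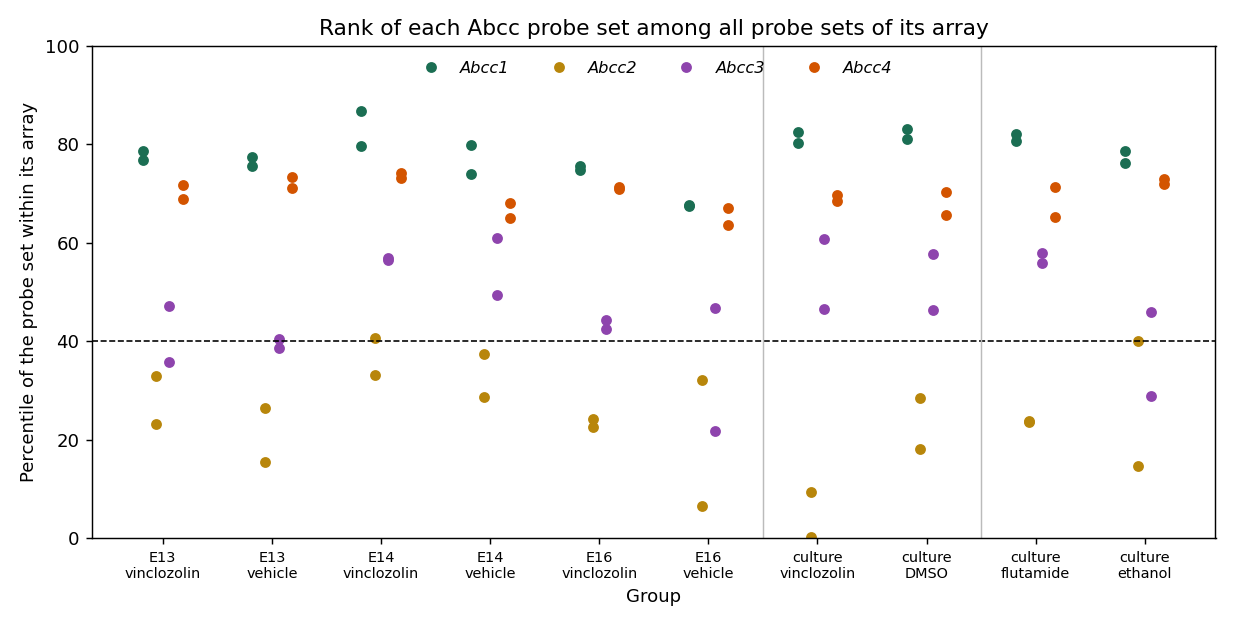
Percentile of each probe set among all probe sets of its array (y axis) in the 10 groups (x axis), with each compound left of its vehicle, 2 points per gene and group, and the 40th percentile dashed. Abcc1 and Abcc4 lie above it on all 20 arrays and Abcc2 below it on 18; heights of different genes cannot be compared, since probe sets differ in brightness.

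The members varied together to different degrees over the 12 in utero arrays, which share their stages, treatments and scale. Pearson's r of log2 values was 0.79 between Abcc1 and Abcc4, 0.69 between Abcc1 and Abcc3, 0.53 between Abcc1 and Abcc2, 0.43 between Abcc3 and Abcc4, 0.40 between Abcc2 and Abcc3 and 0.22 between Abcc2 and Abcc4. Of 11676 other genes, 231 were closer to Abcc1 than Abcc4 was. The genes most like Abcc1 were Slc7a1, a cationic amino acid transporter (r = 0.934), Nes, the intermediate filament protein nestin (0.919), and Sema6d, a semaphorin (0.912). Those most like Abcc3 were Atp1b1, the beta subunit of the sodium pump (0.957), Snapc4 (0.949) and Tox (0.936), and Atp1b1 averaged 417.3 at E13, 765.7 at E14 and 450.2 at E16. Those most like Abcc4 were the RNA-binding protein gene Lin28a (0.913), Haus8 (0.891) and the laminin gene Lama1 (0.881), and those most like Abcc2 were Mocs1 (0.885), Pi4k2a (0.876) and Liat1 (0.854). Abcc2 lay under the 40th percentile on 11 of these 12 arrays, so every r that involves it rests on values near the floor.

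**Figure D4:**
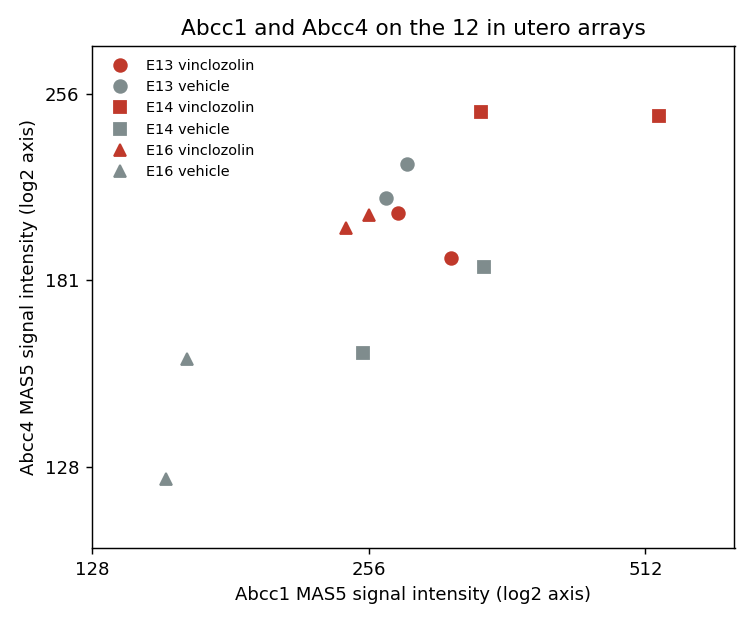
Signal of Abcc4 (y axis) against that of Abcc1 (x axis) on the 12 in utero arrays, both on log2 axes; colour gives the treatment and shape the stage. The E16 vehicle arrays lie lowest for both genes and the E14 vinclozolin arrays highest for Abcc4 (r = 0.79, n = 12 arrays that share stages and treatments).

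Genes of the wider conjugation and export pathway were taken from 10 lists with 154 entries, of which 136 were on the array and 96 were tested. Between E13 and E16, 28 of the 96 rose and 8 fell, which is 37.5% of them, beside 18.7% of all tested probe sets. The 96 are 1 probe set per gene, that of highest mean, while the 18.7% covers all tested probe sets, so the shares are not of like units. The lists were drawn up with earlier results of these data known, so the share is a description. Of 4 other members of the Abcc family tested, 1 rose, Abcc9, the sulfonylurea receptor of vascular potassium channels (1.46, SE 0.17, adjusted p = 1.75e-05). At E13 Abcc9 read 10.7 to 25.3, under the 40th percentile of those arrays (31.6 to 38.8), so the size of its rise is uncertain. Cftr, also among the 4, reached that percentile on 2 of 20 arrays, and Abcc10 on 5. Abcc6 and Abcc8 reached the 40th percentile on 0 arrays, like the drug exporter Abcb1a and the bile salt pump Abcb11. Of 7 other efflux transporters tested, Abcg1, a sterol exporter, rose by 0.46 (SE 0.12) and Abca2 fell by 0.79 (SE 0.19).

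The enzymes that make the cargo of these transporters were counted over the same span. Of 14 glutathione transferases 8 rose and 1 fell, with a median of 0.48 against -0.02 for all tested probe sets. Gsta1 rose by 2.74 (SE 0.33, adjusted p = 1.94e-05), Mgst3 by 1.15 (SE 0.16) and Gstt1 by 1.27 (SE 0.20), and Gstp1 fell by 0.56 (SE 0.10). Of 9 glutathione synthesis genes 3 rose and 1 fell, with Gclm, the regulatory subunit of the rate-limiting ligase, at 1.41 (SE 0.21), the gamma-glutamyltransferase family genes Ggt7 and Ggt5 at 0.84 (SE 0.21) and 0.59 (SE 0.17) and the cystine carrier gene Slc7a11 at -0.66 (SE 0.18). Of 7 glucuronide and sulfate genes 2 rose, the sulfotransferase gene Sult1a1 by 1.91 (SE 0.21) and Papss2, which makes the sulfate donor, by 0.53 (SE 0.16). Sult1a1 read 11.9 to 28.4 at E13, under the 40th percentile of those arrays, so the size of its rise is uncertain. Ggt7 and Ggt5 read 12.3 to 37.2 and 19.4 to 39 at E13, and Slc7a11 16.4 to 35.5 at E16, near that percentile. Of 12 genes of leukotriene and prostaglandin synthesis 6 rose and 0 fell, with the prostaglandin-degrading Hpgd at 1.895 (SE 0.18), the phospholipase gene Pla2g4a at 1.35 (SE 0.18), the cyclooxygenase gene Ptgs2 at 0.96 (SE 0.21) and the prostacyclin synthase gene Ptgis at 0.79 (SE 0.18). Of 23 cyclic nucleotide genes 3 rose and 4 fell, with the guanylate cyclase subunit gene Gucy1b1 at -0.94 (SE 0.13), the adenylate cyclase gene Adcy2 at 0.79 (SE 0.13), the phosphodiesterase gene Pde2a at -0.54 (SE 0.12) and the natriuretic peptide receptor gene Npr1 at -0.64 (SE 0.14).

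Of 7 xenobiotic sensors 1 rose, the glucocorticoid receptor gene Nr3c1 (1.02, SE 0.16). Of 7 further NRF2 targets 2 rose and 1 fell, with the glycine transporter gene Slc6a9 at 1.23 (SE 0.18), the heme oxygenase gene Hmox1 at 1.04 (SE 0.22) and the thioredoxin reductase gene Txnrd1 at -0.59 (SE 0.13). Of 6 uptake transporters 1 rose, Slco1c1 (1.19, SE 0.23), which at E13 read 6.3 to 26.1, under the 40th percentile of those arrays. Between E13 and E14, 24 of the 96 genes rose and 8 fell, or 33.3% beside 25.1% of all tested probe sets. Between E14 and E16, 24 rose and 17 fell, or 42.7% beside 41.5%, which is near that share. Here too 1 probe set per gene is set beside all tested probe sets. In the comparisons with vinclozolin at each stage, over the stages and in culture, and with flutamide, 0 of the 96 genes passed by limma, and 1 to 7 of them had an unadjusted p under 0.05.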

How the data were processed

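The deposited values are MAS5 signal intensities, made by the authors with MAS5, with GCOS also named for the culture arrays, per the submitters' processing notes (versions not given in the sources used here). Each experiment had its own scale, found as the mean with 2% trimmed at either end. Apart from 57 controls, those probe sets were tested whose signal was at or over the array's 40th percentile on 2 or more arrays. Values were fitted as log2(signal + 16) with limma 3.58.1 in R 4.3.3, 1 mean per group, all 20 arrays, trended variances, residual degrees of freedom 10 and prior 6.76. The fit was tested on simulated data. Symbols came from the platform annotation, checked against RefSeq gene IDs, with the probe set of highest mean for other genes.

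The members and lists were chosen with earlier results of these data known. List genes were named by smallest p (up to 4 per list past the threshold, printed for E13 to E16), and with each member the 3 genes most like it. Xist, Amh and Eif2s3y were chosen after values of these data were seen. Alternatives were quantile normalization, rescaling to 1 trimmed mean, pseudocounts of 1 and 64, no filter, only the arrays of the experiment, a replicate block, vehicle arrays alone, and leaving out arrays. With 2 arrays a group, their number limits the precision. Protein sequences, probe sequences and detection calls were not used here.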

Additional observations from a re-analysis of the deposited data

Results flagged for a closer look

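Abcc4 was lower on both vinclozolin arrays than on both vehicle arrays at E13 and higher on both at E14 and at E16. The vinclozolin difference at E14 exceeded that at E13 by 0.622 on the log2 scale, and the difference at E16 exceeded that at E13 by 0.617. The F test of the stages gave an unadjusted p of 0.0351 and an adjusted p of 0.983 by limma, so the difference between stages did not pass. At E13 the arrays numbered 1, with Xist at 896 with vinclozolin and 758.6 with vehicle, were the lower of each pair for Abcc4.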

How the results depend on the processing

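Of 584 alternative values of the members 542 kept their direction and their side of the threshold, 10 lost and 3 gained a call and 29 turned direction, and of 146 alternative counts 23 moved by over 1.5 times. The causes were not tested. The fall of Abcc1 from E13 to E16 was -0.41 (adjusted p = 0.0513) after quantile normalization, -0.48 (0.068) with the in utero arrays alone and -0.46 (0.114) without the E13 arrays numbered 1, which also gave 2436 probe sets for this span, 1 for stage dependence, and vinclozolin differences at E13 of -0.033 for Abcc1, -0.19 for Abcc3 and 0.74 for the dim Abcc2. Abcc3 from E13 to E16 was -0.054 with quantile normalization, -0.030 with a pseudocount of 1 and -0.15 with vehicle arrays alone. Vehicle arrays alone, at 2 a stage, called 659 probe sets from E13 to E14, 4957 from E14 to E16 and 1925 from E13 to E16, with Abcc3 at 1.17 from E13 to E14 and Abcc4 at -0.58 from E13 to E16. Abcc2 with flutamide was -0.15 with quantile normalization and -0.013 with a pseudocount of 64. A pseudocount of 1 called 0 probe sets for vinclozolin at E14, 5 at E16 and 4 for flutamide, and one of 64 called 1 for vinclozolin over the stages. Leaving out 1 array gave counts of 3654 to 6302 from E13 to E14, 2748 to 3997 from E13 to E16, 0 to 4 for vinclozolin at E13, 0 to 272 (without E14 vehicle replicate 2) at E14, 0 to 28 (without E16 vehicle replicate 2) at E16, 0 to 9 over the stages and 0 to 1 for stage dependence. From E13 to E14 it gave 0.14 to 0.45 for Abcc1, 0.89 to 1.30 for Abcc3 and -0.061 to 0.044 for Abcc4. From E13 to E16 it gave -0.53 to -0.44 for Abcc1, -0.33 to 0.22 for Abcc2 and -0.28 to 0.31 for Abcc3, and from E14 to E16 -0.88 (adjusted p = 0.0121, without E16 vehicle replicate 1) to -0.34 for Abcc2. With vinclozolin it gave -0.21 to 0.60 for Abcc3 and 0.084 to 0.58 for Abcc2 at E13, -0.021 to 0.29 for Abcc2 and -0.33 to 0.42 for Abcc3 at E14, and -0.24 to 0.85 for Abcc2 and -0.069 to 1.13 for Abcc3 at E16. In culture it gave -0.17 to 0.054 for Abcc1, -0.37 to 0.60 for Abcc3 and -0.11 to 0.24 for Abcc4 with vinclozolin, and -0.42 to 0.43 for Abcc2 with flutamide, and over the stages 0.077 to 0.44 for Abcc2. The labels do not say that replicate numbers pair arrays: deviations of same-numbered arrays correlated at 0.60 at E13, -0.05 at E14, -0.11 at E16, 0.12 with vinclozolin in culture and -0.000125 with flutamide. A replicate block changed no call of a member, and with it the adjusted p of the vinclozolin difference of Abcc1 at E16 (0.60) was 0.748. Each member rests on 1 probe set, and 2 arrays a group leave intervals wide for the dim Abcc2 and Abcc3.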
